A study of Mus musculus with 8 samples.

Results

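The 9 genes Batf, Batf3, Jun, Junb, Jund, Fos, Fosb, Fosl2 and Atf3 encode transcription factors of the AP-1, BATF and ATF3 group. They were taken by name from the 19330 genes of the count table, and each of the 9 had a row and passed the filter on low counts, which left 16434 genes for testing. RNA-seq measured cultured regulatory T cells (Tregs) of B6 mice, which had been polarized in vitro over 3 days from naive splenic CD4+ T cells. There were 4 libraries of cells polarized with oxPAPC, a mixture of oxidized phospholipids, and 4 libraries of control cells polarized without it. Both groups had the same genotype and the same polarization. The labels give no dose. They do not tie replicates to separate animals or cultures, and p-values therefore measure only the spread between these libraries, which may be technical. The comparison, oxPAPC against control, addresses what the lipids do to the transcriptome of differentiating Tregs.

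AP-1 is a family of dimers that bind DNA through a basic region and pair through a leucine zipper (bZIP). JUN proteins can pair with themselves or with a FOS protein, whereas FOS proteins need a JUN partner. BATF and BATF3 lack the activation domain of FOS proteins, pair with JUN proteins and bind composite DNA elements together with IRF4 or IRF8. In mouse T cells BATF is needed for Th17 and follicular helper cells and for Tregs of non-lymphoid tissues, and JUNB acts with it in Th17 cells and in effector Tregs. Fos, Fosb, Jun and Junb are immediate early genes whose RNA rises within minutes of receptor signals and is short-lived. Atf3 is induced by many kinds of stress and by inflammatory signals.

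Atf3, Batf, Jun and Junb RNA was higher in the oxPAPC libraries, by 3.64-fold, 1.91-fold, 1.80-fold and 1.57-fold. Jund, Batf3, Fosb, Fosl2 and Fos did not pass the test. For Atf3, Batf, Jun and Junb every oxPAPC library was above every control library, which held for 9.5% of all tested genes. For none of the 9 was every oxPAPC library below every control library, which held for 9.86% of all tested genes. Each of the 9 genes, called or not, encodes a JUN protein or a partner of JUN proteins. In edgeR's quasi-likelihood fit of all 16434 genes, 4 of the 9 rose and none fell at a Benjamini-Hochberg adjusted p under 0.05, while 6.75% of all tested genes were called higher and 6.52% lower. At an unadjusted p under 0.05, 4 were higher and 1, Fos, was lower, while 13.6% of all tested genes were higher and 13.9% lower. DESeq2 and limma-voom also called 4 higher and 0 lower, but in 9 of 17 alternative settings only 3 were called, without Junb. The median log2 fold change was 0.46 for the 9 genes and -0.01 for all tested genes. The 9 genes were chosen with earlier results of these data known, so their counts and median are not an unbiased measure of an excess. In bulk RNA, a change in the number of cells that express a gene and a change in RNA per cell cannot be told apart.

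The bases before the start sites of the 4 genes that rose are shown with those of Fos, whose measured difference had the opposite sign. They are from RefSeq promoter entries of GRCm38.p6, which were found for all 9 genes, and are written 5′ to 3′ on the strand of the gene. Each window of 250 bases ends at the RefSeq start site. Bases that GENCODE M21 annotates as exon of the gene were left out of the printed stretches. Capitals mark matches, on either strand, to the AP-1 element TGANTCA, its longer form TGACNTCA, the core TGACGT of the cyclic AMP element, the STAT element TTCNNNGAA, the TATA box TATAAA, the CCAAT box CCAAT and the CArG box of serum response factor.
Atf3, chr1:191183341-191183583, minus strand: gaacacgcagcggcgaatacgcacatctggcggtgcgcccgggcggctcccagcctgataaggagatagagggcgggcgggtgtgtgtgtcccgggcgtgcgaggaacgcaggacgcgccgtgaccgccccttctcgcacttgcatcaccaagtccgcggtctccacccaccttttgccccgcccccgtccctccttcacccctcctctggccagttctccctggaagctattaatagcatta
Batf, chr12:85686470-85686668, plus strand: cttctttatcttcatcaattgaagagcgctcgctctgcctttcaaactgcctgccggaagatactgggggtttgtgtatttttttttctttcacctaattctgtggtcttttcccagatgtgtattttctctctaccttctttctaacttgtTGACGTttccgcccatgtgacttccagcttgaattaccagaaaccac
Jun, chr4:95052223-95052472, minus strand: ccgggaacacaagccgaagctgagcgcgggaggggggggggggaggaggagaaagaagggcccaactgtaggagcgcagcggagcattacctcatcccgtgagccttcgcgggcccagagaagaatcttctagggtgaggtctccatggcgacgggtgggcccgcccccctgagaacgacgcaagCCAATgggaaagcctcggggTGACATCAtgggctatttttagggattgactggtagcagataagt
Junb, chr8:84978749-84978998, minus strand: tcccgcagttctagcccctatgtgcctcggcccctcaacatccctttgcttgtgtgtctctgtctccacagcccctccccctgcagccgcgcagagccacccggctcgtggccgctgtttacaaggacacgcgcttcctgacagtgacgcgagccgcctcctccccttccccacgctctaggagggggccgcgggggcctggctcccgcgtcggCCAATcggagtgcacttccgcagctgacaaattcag
Fos, chr12:85473640-85473889, plus strand: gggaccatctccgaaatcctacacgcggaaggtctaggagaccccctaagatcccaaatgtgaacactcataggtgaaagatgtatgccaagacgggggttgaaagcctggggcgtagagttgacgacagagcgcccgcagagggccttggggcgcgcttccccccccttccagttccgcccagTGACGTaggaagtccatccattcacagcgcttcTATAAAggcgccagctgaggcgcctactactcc
The window of Jun held TGACATCA, a match to TGACNTCA that begins 45 bases before the start site, and 7.49% of all 32851 promoter windows of this length held a match to that motif. Batf and Fos each held TGACGT, which 6.47% of all windows held, beginning 98 and 66 bases before their start sites. CCAAT, found in 33.8% of windows, was present in those of Jun and Junb, and TATAAA, found in 12.4%, in that of Fos. None of the 9 windows held TGANTCA (6.75% of all windows) or a CArG box (1.47%), and of the 9 only that of Batf3 held TTCNNNGAA (7.02%). Bases further upstream than 250 were not searched. A promoter element beyond the window, of Fos or of any other of these genes, would therefore not be seen. Matches were sought in all 250 bases, exonic ones included, and the windows differ in this. The longest stretch free of exons was 87 bases for Batf3, outside which its match lies, and 0 bases for Fosl2. The window of Jund ends at position 70697738, whereas its GENCODE M21 gene starts at 70698949. The printed stretch of Atf3 matched none of these letters, and its window held TGACGT, on the other strand, beginning 8 bases before the start site and reaching into the bases left out. The window lies within the longer Atf3 gene of GENCODE M21, which extends to position 191218039, so it describes the start of the shorter RefSeq form. These matches describe letters in a window and were not tested against the fold changes.

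Atf3 encodes a factor that is kept low in resting cells and that pairs with JUN proteins. Its gene spans positions 191170296 to 191218039 of chromosome 1 (GRCm38). Atf3 had 15.3, 11.8, 17.2 and 13.2 CPM (counts scaled by TMM to a common library size) in oxPAPC replicates 1 to 4, against 4.72, 4.07, 3.70 and 3.36 CPM in control replicates 1 to 4. The lowest oxPAPC library was well above the highest control library. The log2 fold change was 1.87 ± 0.19 (SE, edgeR adjusted p = 4.25e-05). The counts behind these values were 179 to 389 reads in oxPAPC and 54 to 81 reads in control libraries.

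Batf3 is the neighbour of Atf3 on the same chromosome, between positions 191097847 and 191108945, with 61.4 kb and no tested gene between them. It is best known in mice for the development of type 1 conventional dendritic cells, and it is also expressed in activated T cells. Batf3 had 16.2, 13.3, 17.5 and 11.1 CPM in oxPAPC replicates 1 to 4, against 16.0, 11.2, 8.18 and 11.4 CPM in control replicates 1 to 4. The groups overlapped, with 2 of 4 oxPAPC libraries above every control library, and the log2 fold change was 0.32 ± 0.21 (SE, edgeR adjusted p = 0.364). Within each library, Batf3 reads per Atf3 read averaged 1.01 in oxPAPC libraries (0.842 to 1.12) and 2.94 in control libraries (2.21 to 3.39). This ratio, which does not depend on scaling between libraries, did not overlap between the groups, and the difference between the 2 fold changes was not tested.

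Batf lies on chromosome 12 between positions 85686669 and 85709087. It had 24.5, 20.8, 25.7 and 28.4 CPM in oxPAPC replicates 1 to 4, against 14.2, 11.5, 13.0 and 13.4 CPM in control replicates 1 to 4. Control libraries lay close together, with a coefficient of variation of 8.48%, against 12.8% in oxPAPC libraries. The log2 fold change was 0.93 ± 0.14 (SE, edgeR adjusted p = 0.000837). Fos lies 209 kb away on the same chromosome, and Jdp2 is the only tested gene between them. Jdp2 encodes another bZIP protein that pairs with JUN proteins and represses AP-1 sites. It had 8.87 ± 1.36 CPM in oxPAPC and 17.1 ± 3.47 CPM in control libraries (SD, n = 4 each), which gave a log2 fold change of -0.94 ± 0.18 (SE, adjusted p = 0.00411 by edgeR). Jdp2 was thus called in the direction opposite to Batf.

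**Figure D1:**
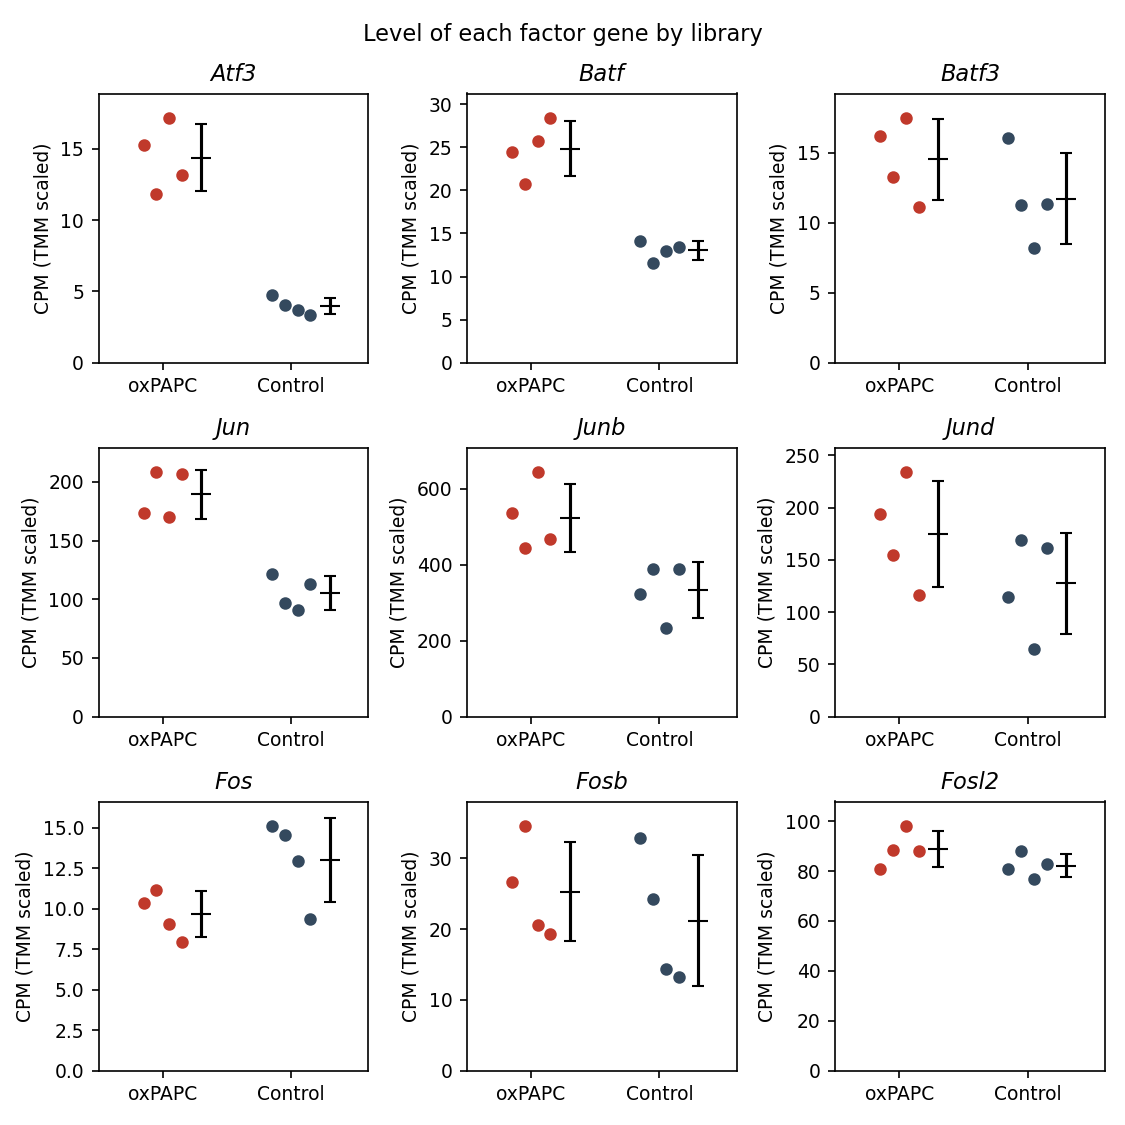
Level of each of the 9 genes in CPM (vertical axes, from 0) in the 4 oxPAPC and the 4 control libraries. Points are libraries in replicate order, and bars give the mean and SD. The groups are apart for Atf3, Batf, Jun and Junb and overlap for the other 5 genes.

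The JUN genes were the most abundant of the 9. Jun, on chromosome 4 between positions 95049034 and 95052222, had 173, 208, 170 and 207 CPM in oxPAPC replicates 1 to 4, against 122, 96.4, 91.0 and 113 CPM in control replicates 1 to 4. No oxPAPC library was as low as the highest control library. The log2 fold change was 0.85 ± 0.15 (SE, edgeR adjusted p = 0.0026). Junos, a noncoding gene on the other strand that overlaps Jun, had 8.16 ± 1.68 CPM in oxPAPC and 6.86 ± 0.780 CPM in control libraries (SD, n = 4 each, edgeR adjusted p = 0.463). The strand setting of the counting was not among the sources used here, so reads of the stretch that both genes share cannot be told apart.

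Junb, which encodes the JUN protein with the highest RNA level here, lies on chromosome 8 between positions 84974484 and 84978718. It had 537, 445, 644 and 469 CPM in oxPAPC replicates 1 to 4, against 322, 389, 234 and 389 CPM in control replicates 1 to 4. The groups did not overlap, but the lowest oxPAPC library and the highest control library were close. The log2 fold change was 0.65 ± 0.20 (SE, edgeR adjusted p = 0.0458). This call was lost in 7 of the 8 fits that left out a library, where the adjusted p ranged from 0.0492 to 0.107 and the log2 fold change from 0.51 to 0.73. It was also lost without a filter on low counts (adjusted p = 0.0508) and with a block for the replicate number (adjusted p = 0.116). Prdx2, a peroxiredoxin gene whose end overlaps Junb on the other strand, had 410 ± 80.5 CPM in oxPAPC and 402 ± 78.8 CPM in control libraries (SD, n = 4 each, edgeR adjusted p = 0.948). As for Jun, reads of the stretch that Junb and Prdx2 share cannot be told apart.

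Jund, an intronless JUN gene on chromosome 8 between positions 70698949 and 70700616, had 194, 155, 234 and 116 CPM in oxPAPC replicates 1 to 4, against 115, 169, 65.1 and 161 CPM in control replicates 1 to 4. It was among the most variable of the 9 genes between libraries of a group, with coefficients of variation of 29.0% in oxPAPC and 37.6% in control libraries. The groups overlapped, and the log2 fold change was 0.46 ± 0.27 (SE, edgeR adjusted p = 0.311).

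Jund and Junb are rich in G and C, with 67.1% and 62.6% in their longest transcripts, higher than in 99.6% and 98.5% of tested genes. Their spread between libraries ran beside that of other GC-rich genes, which was looked at after the data were seen. For each library, the median deviation of log2 CPM from the mean of the 8 libraries was taken over 671 tested genes with at least 60% GC, and that of the other tested genes was subtracted. The result was 0.05, -0.03, 0.12 and -0.21 in oxPAPC replicates 1 to 4, and -0.02, 0.29, -0.43 and 0.20 in control replicates 1 to 4. Jund deviated by 0.45, 0.12, 0.72 and -0.29 in oxPAPC replicates 1 to 4, and by -0.31, 0.25, -1.13 and 0.18 in control replicates 1 to 4. Within both groups, the libraries thus had the same order for Jund as for the GC-rich genes. Junb had the same order in control libraries and exchanged the lowest pair, replicates 2 and 4, in oxPAPC libraries. Batf3, with 60.7% GC, also had the same order in oxPAPC libraries but not in control libraries, where replicate 1 was its highest. Such orders were not limited to GC-rich members. Fosl2, with 53.1% GC, had the same order as the GC-rich genes in control but not in oxPAPC libraries. Atf3, with 52.2% GC, had the order of Junb in oxPAPC but not in control libraries. With a per-library offset for GC content and length in the edgeR fit, Jund passed the test (log2 fold change 0.63, adjusted p = 0.0152), and Junb had a log2 fold change of 0.71 (adjusted p = 0.00177). In that fit 1733 genes were called higher and 1546 lower, against 1110 and 1072 without the offset. The part of base composition in the values of Junb and Jund was not tested beyond this fit.

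**Figure D2:**
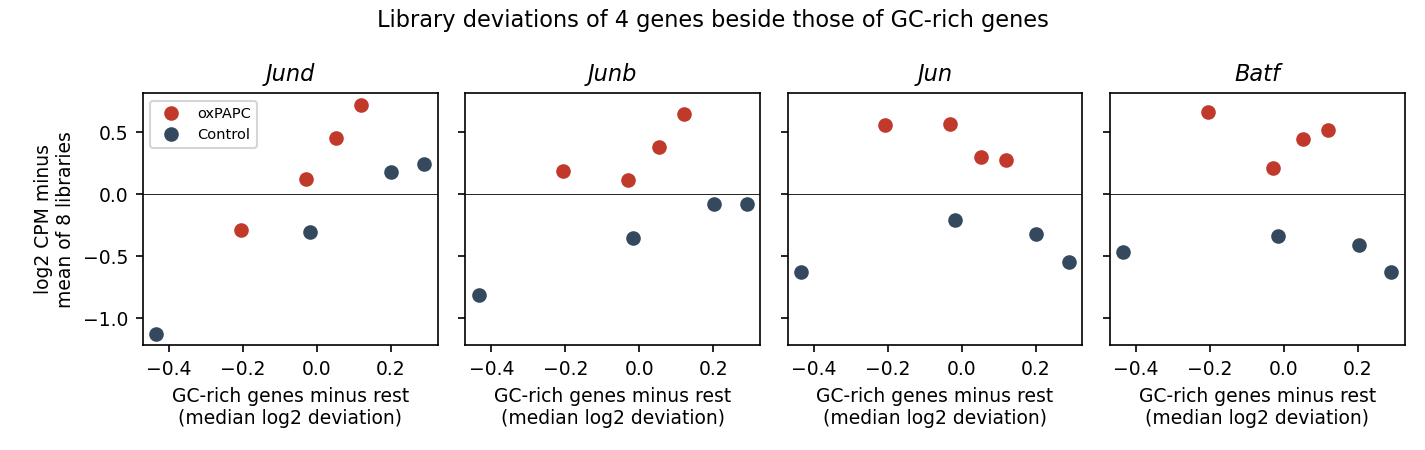
Deviation of log2 CPM from the mean of the 8 libraries for Jund, Junb, Jun and Batf (vertical axis) against the median deviation of genes with at least 60% GC minus that of the other genes (horizontal axis). Each point is an oxPAPC or a control library. Control replicate 3, at -0.43, has the lowest Jund and Junb of all 8 libraries, while Jun and Batf are higher in every oxPAPC library than in any control library.

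The FOS genes showed no call. Fos lies on chromosome 12 between positions 85473890 and 85477273 and had 10.4, 11.2, 9.05 and 7.96 CPM in oxPAPC replicates 1 to 4, against 15.1, 14.6, 12.9 and 9.34 CPM in control replicates 1 to 4. Only control replicate 4 lay within the range of the oxPAPC libraries. The log2 fold change was -0.43 ± 0.19 (SE, unadjusted p = 0.0372, edgeR adjusted p = 0.151). Over the 8 fits that left out a library it ranged from -0.56 to -0.35.

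Fosb, whose product is a FOS protein of slower turnover in some of its forms, had 26.6, 34.6, 20.6 and 19.4 CPM in oxPAPC replicates 1 to 4, against 32.9, 24.2, 14.3 and 13.3 CPM in control replicates 1 to 4. It overlapped between the groups and had the widest spread of the 9 genes in control libraries, with a coefficient of variation of 43.6% (log2 fold change 0.26 ± 0.27, SE, edgeR adjusted p = 0.586). Fosl2 encodes FRA2, a FOS protein without a strong activation domain that limits Th17 plasticity in mice. It had 80.8, 88.5, 98.1 and 87.9 CPM in oxPAPC replicates 1 to 4, against 81.0, 87.8, 76.9 and 82.9 CPM in control replicates 1 to 4, the narrowest spread of the 9 genes (log2 fold change 0.11 ± 0.13, SE, edgeR adjusted p = 0.624). Reads of Fos per read of Fosb averaged 0.391 in oxPAPC and 0.666 in control libraries, with no overlap, and this ratio was not tested. Jun reads per Fos read averaged 20.03 in oxPAPC libraries (16.7 to 26.0) and 8.45 in control libraries (6.62 to 12.1), also without overlap. Of the 36 ratios between the 9 genes, 14 did not overlap between the groups, 8 of them with Atf3, and 22 overlapped. Ratios that share a gene are not independent, and the share over ratios of all tested genes was not computed. These counts therefore have no baseline.

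**Figure D3:**
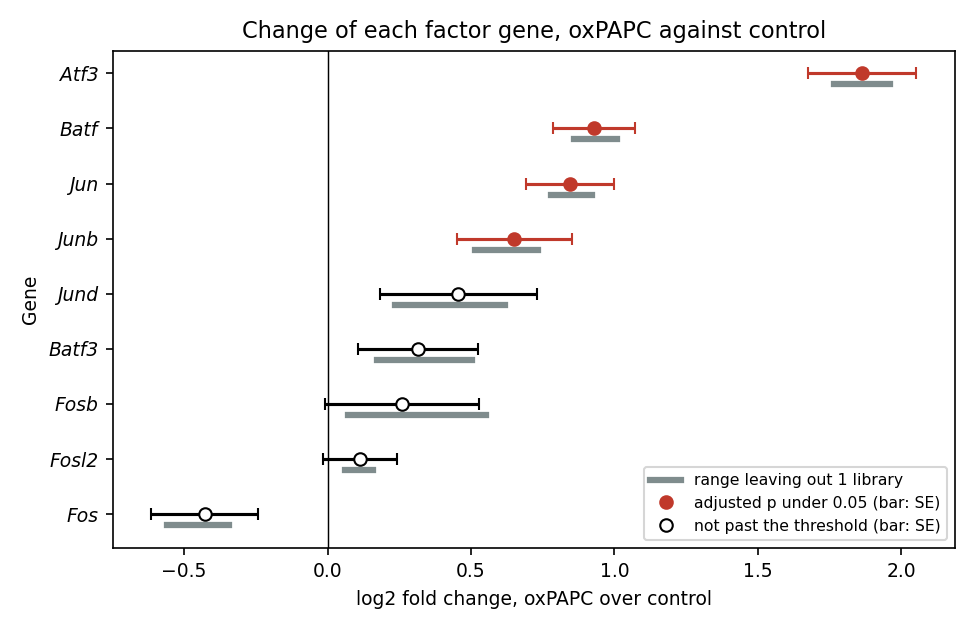
Log2 fold change of oxPAPC over control for each of the 9 genes (horizontal axis), with SE bars, red for an adjusted p under 0.05. Grey bars span the 8 fits that each left out a library. Atf3 stands highest at 1.87, Fos is the only gene below 0, and the grey bar of each gene stays on the side of its point.

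Levels were set against each other per kb of exonic length, from the union of exons in GENCODE M21. In oxPAPC libraries Junb was highest with 228 ± 38.8 CPM per kb (SD, n = 4), followed by Jund with 105 ± 30.4, Jun with 59.5 ± 6.54 and Batf with 17.7 ± 2.26 CPM per kb. The ranges of these 4 genes did not overlap between neighbours. Fosl2 with 9.18 ± 0.730, Batf3 with 9.09 ± 1.80 and Atf3 with 6.67 ± 1.09 CPM per kb came next, and Batf3 overlapped both others. Fos and Fosb, with 4.10 ± 0.604 and 4.05 ± 1.11 CPM per kb, overlapped each other and had the lowest means. The range of Atf3 was above that of Fos and overlapped that of Fosb, which was higher than Atf3 in oxPAPC replicate 2.

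In control libraries Junb (145 ± 31.9 CPM per kb), Jund (76.4 ± 28.7) and Jun (33.1 ± 4.48) again led without overlap between neighbours (SD, n = 4). Batf, at 9.27 ± 0.785 CPM per kb, overlapped Fosl2 at 8.49 ± 0.470 in control libraries, whereas in oxPAPC libraries all 4 values of Batf were above all 4 of Fosl2. Every further neighbour pair in the control order overlapped. By its mean, Atf3 was last of the 9 in control libraries, at 1.84 ± 0.271 CPM per kb. Junb made up 58.0 ± 2.24% of the summed CPM per kb of the 3 JUN genes in oxPAPC and 57.3 ± 1.89% in control libraries (SD, n = 4 each). Among Fos, Fosb and Fosl2, Fosl2 held 53.3 ± 6.08% in oxPAPC and 49.5 ± 6.96% in control libraries, and Fos held 23.6 ± 1.94% and 31.6 ± 3.29% (oxPAPC and control, SD, n = 4 each).

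**Figure D4:**
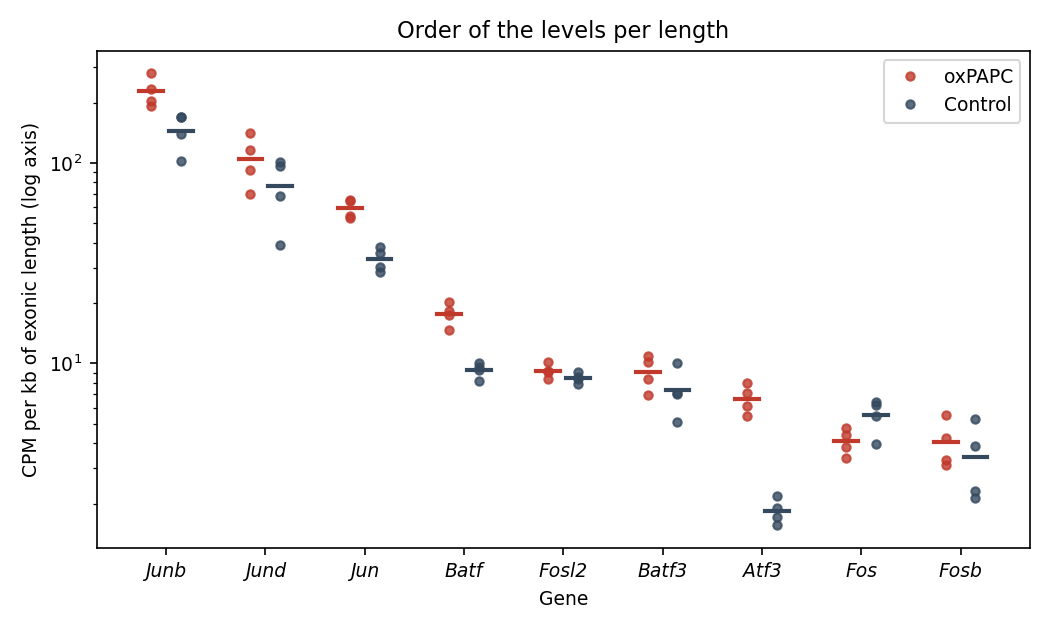
CPM per kb of exonic length (vertical axis, log scale) for the 9 genes in order of their oxPAPC mean. Points are libraries and short lines are means, with oxPAPC left of control for each gene. Junb leads in both groups. The mean of Atf3 is above those of Fos and Fosb in oxPAPC libraries, where its range overlaps that of Fosb, and is the lowest in control libraries.

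For each gene that passed, the 3 genes most like it were those with the highest Pearson correlation of log2 CPM over the 8 libraries, among 9411 tested genes with a mean of at least 5 CPM. Both groups enter these correlations, so the difference between the groups makes up much of them, and they are given as a description. Those of Atf3 were Ifi47 (r = 0.993), an interferon-inducible GTPase, Jcad (0.992), a junction protein first described in endothelium, and Slfn2 (0.989), a Schlafen family gene tied to T cell quiescence in mice. Those of Batf included the type 2 cytokine gene Il13 (0.989) and the ribosome assembly gene Imp4 (0.989). Those of Jun were Lsm6 (0.995), for an RNA-binding ring protein, Asb13 (0.987) and the noncoding RNA Snhg17 (0.981). Those of Junb were Sap30bp (0.999), the growth factor gene Pdgfb (0.997) and the ribosome assembly gene Eif6 (0.997). All of these named genes but Sap30bp (edgeR adjusted p = 0.16) passed the test and were higher. Pdgfb lost its call in 10 of 17 alternative settings, as Junb did in 9.

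Genes tied to these factors were taken from lists, which were chosen with earlier results of these data known. Of 29 tested genes of a list of other bZIP factors, 1 rose, 3 fell and 25 did not pass, with a median log2 fold change of -0.08. The shares were 3.45% higher and 10.3% lower, against 6.75% and 6.52% of all tested genes. Crem, a cyclic AMP responsive factor, rose to 71.7 ± 10.7 CPM in oxPAPC, against 43.4 ± 9.55 CPM in control libraries (SD, n = 4 each, log2 fold change 0.72, edgeR adjusted p = 0.013). Ddit3, which encodes the stress factor CHOP, fell to 6.05 ± 0.877 CPM in oxPAPC, against 20.2 ± 5.48 CPM in control libraries (SD, n = 4 each, log2 fold change -1.73, edgeR adjusted p = 0.000109). Atf3 and Ddit3, both known to be induced by stress through ATF4, were thus called in opposite directions. Dbp, a circadian factor, fell to 17.1 ± 2.71 CPM in oxPAPC, against 51.8 ± 15.2 CPM in control libraries (SD, n = 4 each, log2 fold change -1.59, edgeR adjusted p = 0.000229). Jdp2, given above, was the third that fell. With the GC and length offset 2 genes of this list rose and 6 fell, and a filter at 5 CPM on average also gave 6 that fell. Batf2 and Cebpa of this list had no row in the table, and Fosl1 and Hlf did not pass the filter on low counts.

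Of 10 tested binding partners, 1 rose and none fell (median log2 fold change -0.04), beside 6.75% and 6.52% of all tested genes. By an unadjusted p under 0.05, 2 were higher and 1 lower, beside 13.6% and 13.9% of all tested genes. Irf4, the partner of BATF at composite elements, rose to 322 ± 70.1 CPM in oxPAPC, against 119 ± 10.3 CPM in control libraries (SD, n = 4 each, log2 fold change 1.43, edgeR adjusted p = 0.000189). Irf8, which can take the same place, had 357 ± 78.5 CPM in oxPAPC and 249 ± 39.4 CPM in control libraries (SD, n = 4 each, edgeR adjusted p = 0.087). It was named after its values were seen. Irf8 passed with DESeq2, which like edgeR called none of the list lower.

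None of 19 tested genes for MAP kinases, their activating kinases and the factors that drive Fos transcription passed by edgeR, DESeq2 or limma-voom (median log2 fold change -0.01). Of all tested genes, 6.75% were called higher and 6.52% lower by edgeR. At an unadjusted p under 0.05, 1 was higher and 5 were lower by edgeR, beside 13.6% and 13.9% of all tested genes. With the GC and length offset 1 was called higher and 4 lower, and testing only genes with a mean of 5 CPM or more gave 2 lower calls.

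Of 17 tested immediate early and activation genes outside the AP-1 family, 3 rose and 4 fell, with a median log2 fold change of 0.11. The shares were 17.6% higher and 23.5% lower, against 6.75% and 6.52% of all tested genes. Gadd45b, a growth arrest and stress gene, rose to 39.3 ± 1.28 CPM in oxPAPC, against 12.1 ± 2.04 CPM in control libraries (SD, n = 4 each, log2 fold change 1.71, edgeR adjusted p = 1.12e-05). Ier3 rose with a log2 fold change of 1.01 (edgeR adjusted p = 0.00186). Zfp36, which encodes a protein that speeds decay of cytokine mRNA, had a log2 fold change of -0.75 (edgeR adjusted p = 0.00637), and Btg2, an antiproliferative gene, had -0.61 (edgeR adjusted p = 0.00638). Myc, Klf2 and Egr1, named after their values were seen, had log2 fold changes of 0.80, -0.86 and -0.77 and also passed (edgeR adjusted p of 0.0128, 0.017 and 0.0232). With library size scaling 2 genes of this list were called lower, since Btg2 (adjusted p = 0.103) and Egr1 (adjusted p = 0.125) did not pass. Without oxPAPC replicate 1 the count was also 2, with Klf2 at an adjusted p of 0.0525 and Egr1 at 0.0699. Klf2 also lost its call with the replicate block (adjusted p = 0.0563), without control replicate 2 (0.0579) and without oxPAPC replicate 4 (0.0551), and Egr1 without oxPAPC replicate 2 (0.0645) and without control replicate 4 (0.0653).

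Of 21 tested cytokine, receptor and effector genes of activated T cells, 14 rose and none fell, with a median log2 fold change of 1.44. The share called higher was 66.7%, against 6.75% of all tested genes. At an unadjusted p under 0.05, 16 were higher and 0 lower, beside 13.6% and 13.9% of all tested genes. The smallest adjusted p were those of Ifng, Il13, Il5 and Csf2, which had 74.4 ± 19.2, 19.5 ± 7.94, 2.45 ± 0.459 and 7.86 ± 2.47 CPM in oxPAPC, against 3.00 ± 1.37, 0.676 ± 0.188, 0.127 ± 0.0747 and 0.871 ± 0.450 CPM in control libraries (SD, n = 4 each). Il2, Il22, Il23r and Klrg1 of this list had no row in the table, and Il21 and Havcr2 did not pass the filter on low counts. A filter at 5 CPM on average removes low cytokine genes, and with it 8 were called.

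**Figure D5:**
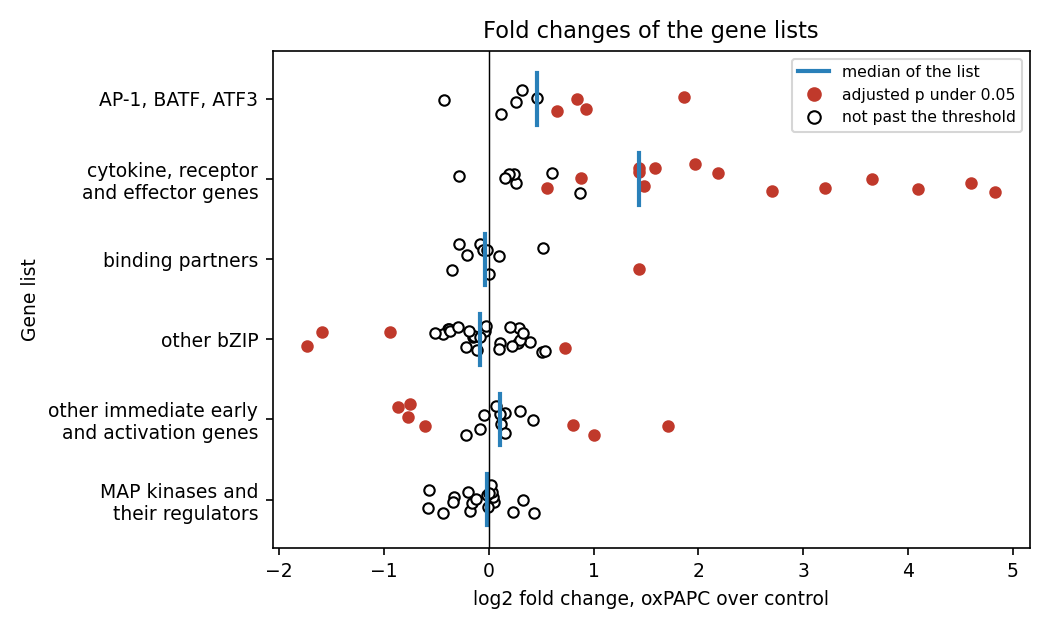
Log2 fold change of oxPAPC over control (horizontal axis) for each tested gene of the 9 factors and of 5 further lists. Filled red points passed an adjusted p of 0.05, open points did not, and blue lines are medians. The medians of the binding partners, other bZIP genes, MAP kinases and immediate early genes lie within 0.11 of 0, and called genes of the other bZIP and immediate early lists lie on both sides of it.

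Libraries held 14017583 to 21619731 counts. Of 9 T cell and Treg markers, all 9 were tested and none passed by edgeR, with 1 higher and 0 lower at an unadjusted p under 0.05. For these and the marker counts below, 6.75% of all tested genes were called higher and 6.52% lower. At an unadjusted p under 0.05 the shares were 13.6% and 13.9%. Foxp3 had 145 ± 52.1 CPM in oxPAPC and 154 ± 34.1 CPM in control libraries, and Cd4 had 363 ± 116 CPM in oxPAPC and 469 ± 76.8 CPM in control libraries (SD, n = 4 each). Of 6 tested B cell markers 3 rose and none fell, with a summed level of 16.0 to 19.4 CPM in oxPAPC and 10.4 to 15.2 CPM in control libraries. By an unadjusted edgeR p under 0.05, 3 were higher and 1, Cd79b, was lower. Cd79b, named after its values were seen, had 3.65 ± 0.587 CPM in oxPAPC and 5.46 ± 1.00 CPM in control libraries (SD, n = 4 each, edgeR adjusted p = 0.0983). Of 7 markers of dendritic cells, which depend on Batf3 for one of their types, 3 were tested and 1, Flt3, rose, with a sum of 12.1 to 14.7 CPM in oxPAPC and 6.19 to 10.8 CPM in control libraries. Most of this sum was Zbtb46, which did not pass, with 11.5 CPM in oxPAPC and 8.69 CPM in control libraries (edgeR adjusted p = 0.182). Flt3 had 1.06 CPM in oxPAPC and 0.184 CPM in control libraries. Clec9a, Cd209a and Siglech of that list had no row in the table, and Xcr1 had 0.693 CPM in oxPAPC and 0.357 CPM in control libraries. Of 4 tested macrophage markers 1, Mpeg1, rose, and the sums were 7.99 to 10.7 CPM in oxPAPC and 3.47 to 4.39 CPM in control libraries. Mpeg1 had 4.02 CPM in oxPAPC and 0.203 CPM in control libraries. Cd68, Lyz2 and Csf1r did not pass (edgeR adjusted p of 0.234, 0.458 and 0.584). Of 4 tested markers of CD8 T cells and natural killer cells 1, Cd8a, rose, with sums of 12.4 to 19.7 CPM in oxPAPC and 8.58 to 10.6 CPM in control libraries. Cd8a had 6.81 CPM in oxPAPC and 2.17 CPM in control libraries. Cd8b1 had 6.33 CPM in oxPAPC and 5.96 CPM in control libraries (edgeR adjusted p = 0.84). Klrd1 and Tyrobp did not pass either. The part of any of these cell types in the levels of the 9 factor genes was not tested. Gm26917, a noncoding gene, took 9.35% to 19.4% of the counts of oxPAPC and 8.59% to 29.1% of those of control libraries. Rn7sk, another noncoding gene, took 1.91% to 3.63% in oxPAPC and 2.73% to 3.38% in control libraries. Of 7 RNA quality markers, which include Gm26917, 1 was called. This was the nuclear noncoding RNA Neat1, named after its values were seen, which fell to 138 ± 22.1 CPM in oxPAPC, against 379 ± 52.0 CPM in control libraries (SD, n = 4 each, log2 fold change -1.46, edgeR adjusted p = 0.000147). Its part in the levels of the factor genes was not tested.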

How the data were processed

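Poly(A)-selected libraries were prepared from column-purified RNA of 4 oxPAPC and 4 control samples, per the labels' protocols. Per the submitters' processing notes, GRCm38.p6 was the genome build, and the tools were DESeq2 1.30.1, featureCounts 2.0.2 and STAR 2.7.8a. The authors deposited a table of whole-number counts per gene with mean normalized signal per gene. It also holds their log2 fold changes, a score (the Wald statistic), fold values and p-values, per the file headers. No gene in the table has under 5 counts in all but 1 library. Coordinates equal those of GENCODE M21 for 99.1% of the identifiers, and exonic lengths were taken from it.

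In edgeR 4.0.16 (R 4.3.3), counts were filtered with filterByExpr, scaled by TMM and tested by quasi-likelihood over the 16434 genes that passed, with Benjamini-Hochberg adjustment and a threshold of 0.05. A standard error is the absolute log2 fold change over the square root of F. Log2 CPM used a prior count of 2. The test was checked on simulated counts. The depth was 14017583 to 21619731 counts a library, and no 2 libraries of a group agreed within counting noise. The members and lists were chosen with earlier results of these data known. The genes named are the 9 members, the 3 genes most like each member that passed, every other bZIP gene that passed and up to 4 genes with the smallest adjusted p that passed in each further list, except 1 gene that is not reported here. Alternatives were DESeq2 1.42.0, limma-voom (limma 3.58.1), scaling by RLE or by library size, dropping the filter or setting it at a mean of 5 CPM, a block for the replicate number and leaving out each library. Library size scaling without Gm26917 and Rn7sk, and a loess offset (span 0.5) for GC content and transcript length, were added after the data were seen.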

Additional observations from a re-analysis of the deposited data

How the results depend on the processing

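Atf3, Batf and Jun kept their direction and their call in all 17 alternative settings, with log2 fold changes of 1.77 to 2.00, 0.86 to 1.06 and 0.78 to 0.99. None of the 9 genes changed direction in any of them. Junb lost its call in 9 settings, with a highest adjusted p of 0.116 under the replicate block, and Jund gained one in 1, the GC and length offset. In the authors' deposited table Junb has an adjusted p of 0.0114. Deviations from the group mean correlated at 0.321, -0.0528, -0.368 and -0.0354 between libraries of the same number. Of 8 libraries, 2 correlated best with the library of the same number. These correlations rest on 4 libraries a group and cannot decide whether libraries of a number belong together. Libraries were not paired in the edgeR fit that the calls come from. With the replicate block 745 genes were higher and 708 lower, and 3 of the 9 factor genes were called. Library size scaling called 458 genes lower, and with it the median log2 fold change over all genes was 0.12, against -0.01. The GC and length offset, chosen after seeing the data, called 1733 genes higher and 1546 lower. In the lists it called 2 other bZIP genes higher and 6 lower, 1 MAP kinase gene higher and 4 lower, and 2 partners higher. The filter at 5 CPM tests fewer genes. It called 6 other bZIP genes and 2 MAP kinase genes lower, and 2 partners and 8 cytokine, receptor and effector genes higher. DESeq2 called 2 partners higher, and library size scaling called 2 immediate early genes lower. For none of these was the cause tested. Fits that leave out a library have fewer samples. They called 710 to 1057 genes higher and 680 to 1144 lower. The lowest counts were without control replicate 2, and 694 were lower without oxPAPC replicate 4. Of the 9 factor genes they called 3 to 4 higher and 0 lower, of the MAP kinase genes and of the partners 0 to 1 lower (Mapk3 and Nfatc3, both without oxPAPC replicate 3) and of the immediate early genes 2 to 4 lower. In 66 groups of 4 values of the named genes, no single library stood far from the 3 others.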
